A study of Schmidtea mediterranea with 28 samples.

Results

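The comparison described here is the knockdown of *bruli* by RNA interference (RNAi) in the Xins fraction of the planarian flatworm *Schmidtea mediterranea*, the sorted fraction that holds mostly differentiated cells. It rests on 4 of the 28 libraries of the series, taken by their labels: 2 Xins libraries from *bruli* RNAi worms and 2 from control RNAi worms. Set beside them are 2 Xins libraries from *mbnl* RNAi worms, 2 from wild type worms and the 4 X1 libraries from *bruli* RNAi and control RNAi worms. Also used are 2 X1 libraries from *mbnl* RNAi worms and 1 from wild type worms. X2 has 1 library each from *bruli* RNAi, control RNAi and wild type worms. Whole worms have 1 library each from *bruli* RNAi and control RNAi. All worms came from the Berlin-1 strain of the asexual type, which per the study's methods descends from a single animal. RNAi worms were injected with double-stranded RNA (dsRNA), each at 1 µg/µl, on 3 consecutive days, kept at 20 °C and sorted 10 days after RNAi. *bruli* RNAi worms received dsRNA against *bruli*. *mbnl* RNAi worms received dsRNAs against the *mbnl* genes, and control RNAi worms received dsRNA coding for GFP, which planarians lack. With several dsRNAs in 1 solution, *mbnl* RNAi worms received more dsRNA in all than *bruli* RNAi worms. The study's methods say that the *gfp* dsRNA was raised, where appropriate, to the highest amount given to an experimental group, so the control RNAi worms may have received more than the *bruli* RNAi worms as well, and whether this moved any value was not tested. The labels name no dsRNA for the wild type worms. Xins cells were gated by single DNA content and high calcein staining, X2 cells by single DNA content and low calcein staining, and X1 cells by double DNA content. Nothing in the labels says that replicates 1 and 2 came from separate groups of worms, so p-values measure the spread between these libraries, which may be technical.

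Planarians renew all their tissues from neoblasts, the only dividing cells of the adult body. X-rays remove the X1 and X2 fractions, which hold the cycling neoblasts and a mixture of resting neoblasts and their progeny, and leave the Xins fraction of neurons, muscle, epidermis, gut and other mature cells. *bruli* encodes a Bruno-like protein of the CELF family of RNA-binding proteins. In vertebrates these proteins bind GU-rich RNA and act on splicing, translation and decay, often against proteins of the muscleblind (MBNL) family. In planarians *bruli* is known as a neoblast-enriched gene needed to maintain these cells. The comparison in Xins therefore asks what the knockdown of a stem cell gene does to messenger RNA levels in a fraction where that gene is low.

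The primers used to make the *bruli* dsRNA are printed because they define what was injected, together with the one primer of another target that shares a long run with them. Capitals mark the longest run shared by the *bruli* and *celf-1* reverse primers. Sequences are 5′ to 3′, from the study's primer list.
bruli forward primer: ctccactcgtaaattccagtcc
bruli reverse primer: CTCCCTTTGGTCgttttaattg
celf-1 reverse primer: gtctcCTCCCTTTGGTCttttt
The shared run was 12 bases long, against 2 to 6 bases for the other primers among the 56 of 28 further targets compared with the *bruli* primer of the same direction. *celf-1* and *celf-3* transcripts were not analysed here. Their relative *celf-2*, which was measured, is described with the other RNAi targets.

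The 4 *bruli* and control RNAi Xins libraries held 20711019 to 32927005 counts over 20364 to 21314 transcripts with counts. A floor of 3 counts corresponded to 0.0911 to 0.145 CPM (counts scaled to a common library total), counting error only. Depth went with the replicate number: the 3 Xins RNAi libraries numbered 1 held 15811388 to 24082601 counts and those numbered 2 held 32702707 to 34143465 counts. The study's annotation tables list 372 transcripts, of which 367 were in the files. Gene symbols are the best human hits, target names or KEGG numbers given there, and not every listed transcript has one. All 8 neoblast marker transcripts were higher in wild type X1 than in wild type Xins, and 15 of 16 markers of differentiated cells were higher in wild type Xins. Summed over each list, neoblast markers reached 484 to 894 CPM in the 6 Xins RNAi libraries against 5946 to 14929 CPM in the 6 X1 RNAi libraries, and differentiated markers 779.5 to 1148 CPM against 130 to 174 CPM. The marker lists were chosen with earlier results of these data known, so their match with the fraction labels is a description and no check. Neoblast transcripts were still measurable in Xins.

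The targeted transcript was low in Xins and lower still after its knockdown. *bruli* (comp2592) had 8.21 and 13.8 CPM in *bruli* RNAi Xins, against 55.4 and 43.4 CPM in control RNAi Xins. It had 30.7 and 34.5 CPM in *mbnl* RNAi Xins and 44.5 and 31.8 CPM in wild type Xins, so both *bruli* RNAi libraries lay below all 6 others. The log2 difference from control RNAi was -2.19 with a standard error (SE) of 0.32 and a 95% interval of -2.98 to -1.40, and the mean in *bruli* RNAi was 22.3% of that in control RNAi. The log2 ratio was -2.74 within replicate number 1 and -1.65 within number 2. Set against *mbnl* RNAi instead, the log2 difference was -1.58 (SE 0.31), and against wild type it was -1.81 (SE 0.34). None of these passed adjustment over all transcripts by the Benjamini-Hochberg method in the quasi-likelihood test of edgeR (adjusted p of 1 against control RNAi), whereas DESeq2 called the difference from control RNAi (adjusted p = 1.61e-05).

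In the scaling of all 12 X1 and Xins RNAi libraries together, *bruli* had 6.81 and 11.7 CPM in Xins and 119 and 162 CPM in X1 after *bruli* RNAi, against 46.5 and 36.2 CPM in Xins and 938 and 1219 CPM in X1 after control RNAi. X1 cells of knockdown worms thus still held a higher CPM of *bruli* than Xins cells of control worms. The log2 difference was -2.94 (SE 0.28) in X1 (edgeR's quasi-likelihood test, adjusted p = 0.013). The test of the difference between fractions gave 0.76 (SE 0.37), Xins minus X1, with an adjusted p of 0.62 in edgeR's quasi-likelihood test. With 1 library per group, the log2 difference of *bruli* was -2.10 in X2 and -3.14 in whole worms on the log2(cRPKM + 1) scale, where cRPKM is the deposited expression level corrected for length and mappability.

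Across the transcriptome the differences in Xins were small. Of 13207 transcripts tested, 0 were called by edgeR's quasi-likelihood test at an adjusted p under 0.05 (0%). At an unadjusted p under 0.05 there were 168 (1.27%), of which 92 were higher and 76 lower in *bruli* RNAi. DESeq2 called 8, all lower, with 154 at an unadjusted p under 0.05, and limma on log2(cRPKM + 1) called 0, with 151. The quartiles of the log2 difference were -0.15 and 0.16 and its median was -0.01. In all, 92.1% of transcripts lay within 0.5 of 0 on the log2 scale, while 53 were at least 2-fold lower and 40 at least 2-fold higher. Those 93 transcripts were weakly expressed, with a median mean count of 164.5 among the lower and 131 among the higher ones against 661 over all transcripts tested.

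The median half-width of the 95% interval of a single transcript was 0.66 on the log2 scale, or 1.58-fold, without adjustment for the number of transcripts. Differences far above this were not called: *bruli* itself, at 22.3% of control RNAi, had an adjusted p of 1 in edgeR's quasi-likelihood test, so the count of 0 sets no limit on the size of single differences. The median SE was 0.34 in the third of transcripts with the fewest counts and 0.23 in the third with the most. The libraries differed far more by replicate number than by knockdown: in the same fit, 1887 transcripts (14.3%) were called between number 2 and number 1, with 993 higher and 894 lower in number 2, and 37.4% had an unadjusted p under 0.05. *DICER1*, the nuclease that cuts small RNA precursors, is an example of the difference by number, at 33.3 and 63.2 CPM in *bruli* RNAi against 26.4 and 65.2 CPM in control RNAi. Its log2 difference between numbers was 1.18 (edgeR's quasi-likelihood test, adjusted p = 0.024), against 0.15 (SE 0.20) between *bruli* RNAi and control RNAi. The sign of the difference from control RNAi was the same in both numbers for 51.3% of transcripts.

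**Figure D1:**
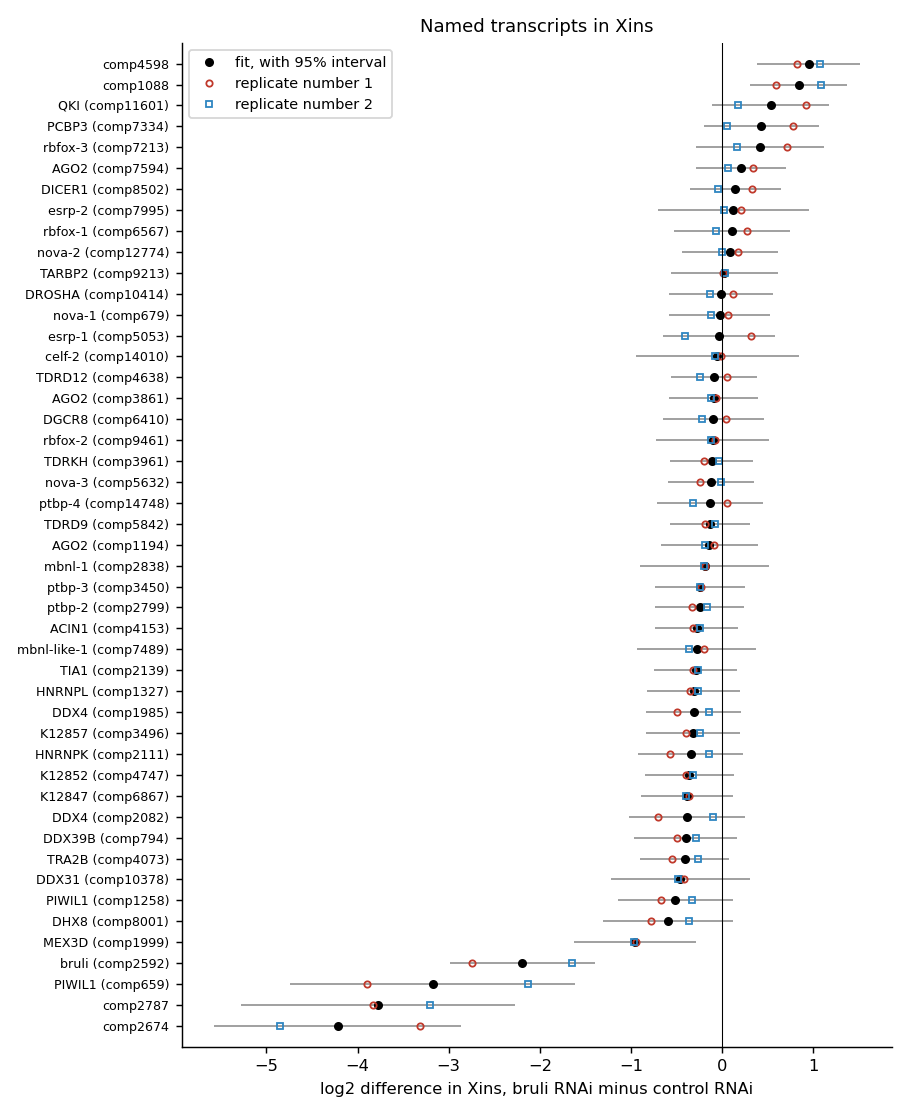
Log2 difference of *bruli* RNAi minus control RNAi in Xins (horizontal axis) for each named transcript tested (rows, in order of the difference). Black points are the fit with 95% intervals, open circles and squares the ratios within replicate numbers 1 and 2. Most rows lie within 0.5 of 0, and *bruli*, 1 of the *PIWIL1* transcripts, comp2787 and comp2674 stand below -2.

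The largest difference of an annotated transcript was in a neoblast marker. *PIWIL1* (comp659), a planarian transcript whose best human hit is a PIWI protein of the piRNA pathway, had 9.23 and 5.60 CPM in *bruli* RNAi Xins against 138 and 24.8 CPM in control RNAi Xins. The 2 control libraries differed widely from each other, yet both lay above both knockdown libraries, as for 8.2% of all transcripts tested. The log2 difference was -3.18 (SE 0.62), with -3.89 within number 1 and -2.13 within number 2. Without control RNAi replicate 1 it was -1.94, and without control RNAi replicate 2 it was -4.07. DESeq2 called it (adjusted p = 1.61e-05), and edgeR's quasi-likelihood test did not (adjusted p of 1). *mbnl* RNAi Xins had 14.9 and 14.5 CPM, also below both control libraries, and wild type Xins had 48.0 and 77.7 CPM. The log2 difference was therefore -1.11 (SE 0.58) against *mbnl* RNAi and -3.12 (SE 0.63) against wild type.

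The same transcript was far more abundant in X1, with 2104 and 2327 CPM in *bruli* RNAi X1 against 5699 and 6732 CPM in control RNAi X1. In the same scaling it had 7.66 and 4.77 CPM in *bruli* RNAi Xins against 116 and 20.7 CPM in control RNAi Xins. Its log2 difference in X1 was -1.48 (SE 0.48), and the difference between fractions, -1.69 (SE 0.69) as Xins minus X1, did not pass edgeR's quasi-likelihood test (adjusted p = 0.53). In a bulk fraction, fewer cells of a type and less RNA per cell cannot be told apart.

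The other neoblast markers sat closer to their controls. The second *PIWIL1* transcript (comp1258) had 280 and 240 CPM in *bruli* RNAi Xins against 446 and 303 CPM in control RNAi Xins, a log2 difference of -0.51 (SE 0.25) with no overlap between the groups. *DDX4*, the VASA-type helicase of germ granules, had 2 transcripts. For comp1985 the levels were 111 and 94.5 CPM in *bruli* RNAi against 156 and 105 CPM in control RNAi (log2 difference -0.31, SE 0.21), and the ranges overlapped. The other, comp2082, had 59.5 and 64.5 CPM against 97.0 and 69.3 CPM in control RNAi (-0.38, SE 0.25), without overlap. Both *bruli* RNAi libraries lay below both control RNAi libraries for 8.2% of all transcripts tested. The Tudor-domain proteins of piRNA production gave log2 differences of -0.13 (SE 0.18) for *TDRD9*, -0.09 (SE 0.19) for *TDRD12* and -0.11 (SE 0.18) for *TDRKH*, each with overlapping groups.

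**Figure D2:**
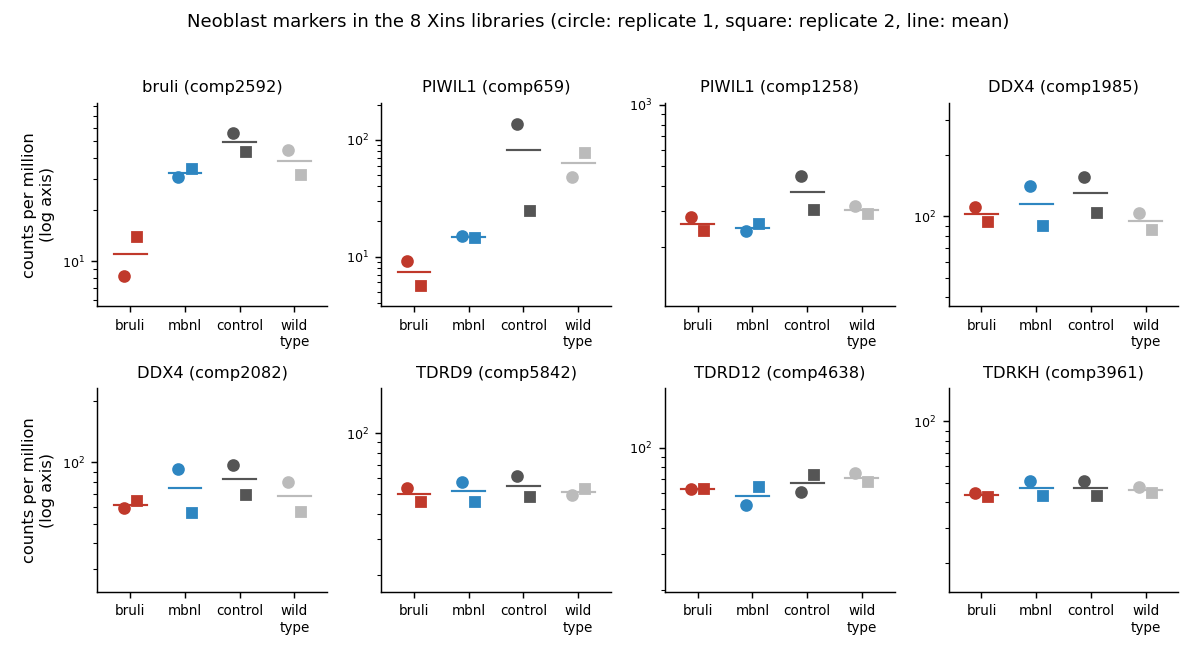
Levels of the 8 neoblast marker transcripts in the 8 Xins libraries, as CPM on a log axis. Circles are replicate 1, squares replicate 2 and lines the mean of each group. *bruli* and *PIWIL1* (comp659) spread the most between libraries, and control RNAi replicate 1 is the highest library for both *PIWIL1* transcripts.

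The 8 neoblast markers include *bruli*, whose sign the injected dsRNA set. The other 7, the piRNA and germ granule list, all had a negative log2 difference, 6 of them (85.7%) in both replicate numbers, beside 28.7% of all transcripts tested. Their median was -0.31, beside -0.01 over all transcripts tested. The summed level of all 8 was 629 and 569 CPM in *bruli* RNAi, 679 and 606 CPM in *mbnl* RNAi, 1065 and 710 CPM in control RNAi, and 764 and 707 CPM in wild type Xins. Control RNAi replicate 1 thus stood above the other 7 Xins libraries, and its part in the result was not tested beyond leaving it out. In the scaling of the 12 X1 and Xins RNAi libraries the sum without *bruli* was 515 and 472 CPM in *bruli* RNAi Xins, 547 and 488 CPM in *mbnl* RNAi Xins and 847 and 557 CPM in control RNAi Xins. Without control RNAi replicate 1 the median of the 7 was -0.22, and without *bruli* RNAi replicate 1 it was -0.13. Against *mbnl* RNAi it was -0.10 and against wild type -0.13.

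Lower values in *bruli* RNAi Xins were not limited to these genes. Wild type libraries alone were used to define transcripts enriched in each fraction, so that the RNAi libraries compared here had no part in the choice. X1 and X2 had 1 wild type library each and Xins had 2, so membership of the sets rests on single X1 and X2 libraries. X1-enriched transcripts were at least 2 higher in X1 than in Xins on the log2(cRPKM + 1) scale, which gave 1114, of which 659 passed the filter on low levels in Xins. Of these, 570 had a negative log2 difference and 462 (70.1%) were lower in *bruli* RNAi than in control RNAi in both numbers, beside 28.7% of all transcripts tested. Both *bruli* RNAi libraries lay below both control RNAi libraries for 195 of them (29.6%, beside 8.2% of all). The set's median was -0.21 (quartiles -0.32 and -0.09), with -0.24 within number 1 and -0.16 within number 2. At an unadjusted p under 0.05, 19 were lower (2.88%, beside 0.575% of all transcripts tested) and 0 higher (beside 0.697%), and 0 were called by edgeR's quasi-likelihood test.

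Leaving out control RNAi replicate 1 gave a median of -0.18 for the X1-enriched set, and the range over leaving out each of the 4 libraries was -0.26 to -0.17. Of the other references, *mbnl* RNAi, itself a knockdown, moved the median beyond this range, and wild type did not. Against *mbnl* RNAi the median of the same set was -0.01 and against wild type -0.17, while control RNAi against wild type gave 0.06. Summed over the set, levels were 24827 and 21426 CPM in *bruli* RNAi, 26935 and 20539 CPM in *mbnl* RNAi, 31012 and 24794 CPM in control RNAi, and 24139 and 28132 CPM in wild type Xins. On this sum *bruli* RNAi was below control RNAi within each number, the groups overlapped, and both *bruli* RNAi libraries fell within the range of the *mbnl* RNAi libraries. The comparisons with wild type reuse libraries that defined the sets.

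X2-enriched transcripts, at least 1 higher in X2 than in both other fractions, counted 502, of which 259 were tested. Their median log2 difference was -0.13, and 49.4% were lower in both numbers, beside 28.7% of all transcripts tested. They made up 1.96% of the transcripts tested but 22 of the 76 that were lower at an unadjusted p under 0.05, and 23 of the 53 that were at least 2-fold lower. Against *mbnl* RNAi their median was -0.04, beside 0.01 over all transcripts tested. Against wild type their median was close to that of all transcripts, at -0.04 beside -0.05. Summed over the set, levels were 12015 and 7294 CPM in *bruli* RNAi and 19735 and 9474 CPM in control RNAi. The sums were 11072 and 8260 CPM in *mbnl* RNAi and 11343 and 9467 CPM in wild type Xins, so control RNAi replicate 1 was the highest library.

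Xins-enriched transcripts leaned the other way. They counted 4248, with 4218 tested, and their median log2 difference was 0.13, with 0.10 within number 1 and 0.08 within number 2. In both numbers 34.7% were higher in *bruli* RNAi, beside 22.6% of all transcripts tested. They made up 31.9% of the transcripts tested and 83 of the 92 that were higher at an unadjusted p under 0.05. Against wild type the median was 0.04, and without control RNAi replicate 2 it was 0.07.

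**Figure D3:**
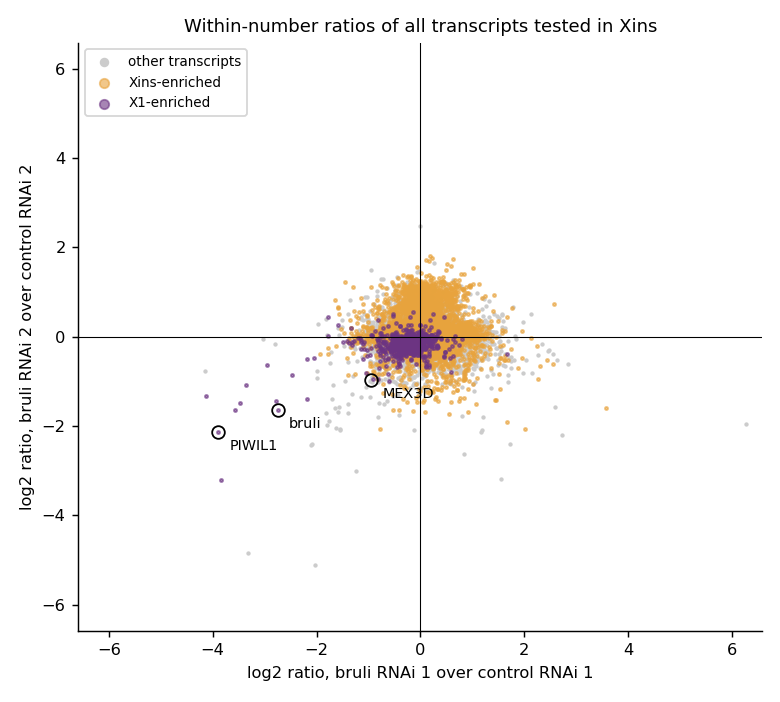
Log2 ratio of *bruli* RNAi over control RNAi within replicate number 1 (horizontal axis) and within number 2 (vertical axis), 1 point per transcript tested in Xins. Points of X1-enriched transcripts lie mostly at the lower left (70.1% of 659), with *PIWIL1* (comp659) and *bruli* at its far end.

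Transcripts of the RNA-processing machinery were mostly lower in *bruli* RNAi than in control RNAi, by small amounts. Among 77 core spliceosome transcripts 73 had a negative log2 difference, beside 6731 of 13207 over all transcripts tested. In both numbers 51 (66.2%) were lower, beside 28.7% of all, and the median was -0.12, beside -0.01. All 15 transcripts of the hnRNP list, proteins that coat nascent RNA and steer splicing, were negative, with a median of -0.13 and a lowest value of -0.35 for *HNRNPK* (comp2111). Of the SR proteins and TRA2 splicing activators 15 of 16 were negative (median -0.16), led by *TRA2B* (comp4073) at -0.41. For the Sm and LSm proteins of the spliceosomal ribonucleoproteins 15 of 17 were negative (median -0.19), and for the exon junction and export factors 11 of 12 (median -0.19). The TIA1 family, with 5 of 6 negative, had a median of -0.24. At an unadjusted p under 0.05 none of these 6 lists had a member in either direction, and edgeR's quasi-likelihood test called 0 of them. These medians also depended on single libraries. Without *bruli* RNAi replicate 1 they were -0.054 for the core spliceosome, -0.064 for SR and TRA2, -0.081 for hnRNP, -0.078 for Sm and LSm and -0.13 for TIA1. Without *bruli* RNAi replicate 2 the first 3 of these lists were at -0.21, -0.25 and -0.25. Without control RNAi replicate 1 the core spliceosome median was -0.18, the Sm and LSm median -0.12 and the TIA1 median -0.11, and without control RNAi replicate 2 the SR and TRA2 median was -0.097. All 6 list medians stayed negative when any 1 of the 4 libraries was left out. Against wild type the medians of these lists lay between -0.08 and -0.01, beside -0.05 over all transcripts tested. Control RNAi against wild type gave list medians from 0.06 (exon junction and export) to 0.20 (TIA1), beside -0.03 over all. Against *mbnl* RNAi the medians were -0.11 for the core spliceosome and hnRNP lists and -0.13 for the SR and TRA2 list. Those of the Sm and LSm, exon junction and TIA1 lists lay between -0.03 and 0.03. The lean was not particular to these lists. The X1-enriched set had a median of -0.21, with 70.1% lower in both numbers. *TRA2B* (comp4073) and *HNRNPK* (comp2111) belonged to that set, with wild type X1 above wild type Xins by 2.57 and 2.07 on the log2 scale. Whether these lists differ from other transcripts that are higher in X1 was not tested. Of all RNA-binding transcripts 219 of 279 were negative (median -0.10), and of the DEAD and DEAH helicases 47 of 53 (median -0.12).

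Lists of RNA-binding proteins of mature tissues had medians of at most 0.10 in size in Xins against control RNAi, and these moved with the libraries and the reference. The neural list, which holds the ELAV, Musashi and NOVA relatives, had a median of 0.10 over 14 transcripts, with 3 lower and 3 higher in both numbers. The epithelial list (5 transcripts) had a median of -0.0044 and the muscle list (7 transcripts) 0.03. Against wild type the neural, epithelial and muscle medians were 0.32, -0.22 and -0.15. Over leaving out each of the 4 libraries, the neural median ran from -0.0049 without control RNAi replicate 1 to 0.27 without control RNAi replicate 2. The epithelial median ran from -0.070 without *bruli* RNAi replicate 2 to 0.10 without control RNAi replicate 1, and the muscle median from -0.36 without control RNAi replicate 2 to 0.16 without control RNAi replicate 1. No direction can be read from such values. In X1 the medians of the same lists were 0.60, 0.63 and 0.37. Beside them stood 0.01 over all transcripts tested in X1 and 0.37 over the whole Xins-enriched set. The 16 markers of differentiated cells had a median of 0.01 in Xins, between -0.24 and 0.42, against 0.72 in X1. Their summed level was 1259 and 916 CPM in *bruli* RNAi Xins against 1184 and 968 CPM in control RNAi Xins. The X1 filter was a mean over X1 and Xins libraries, so transcripts low in X1 could pass it through Xins. *celf-2* had 0.51 and 0.37 CPM in *bruli* RNAi X1 against 0.25 and 0.12 CPM in control RNAi X1, where 3 counts are 0.102 to 0.141 CPM. *rbfox-2* and *ptbp-4* had at most 1.83 CPM in these libraries, while *esrp-1*, *esrp-2*, *nova-1* and *rbfox-3* had at least 2.64 CPM.

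**Figure D4:**
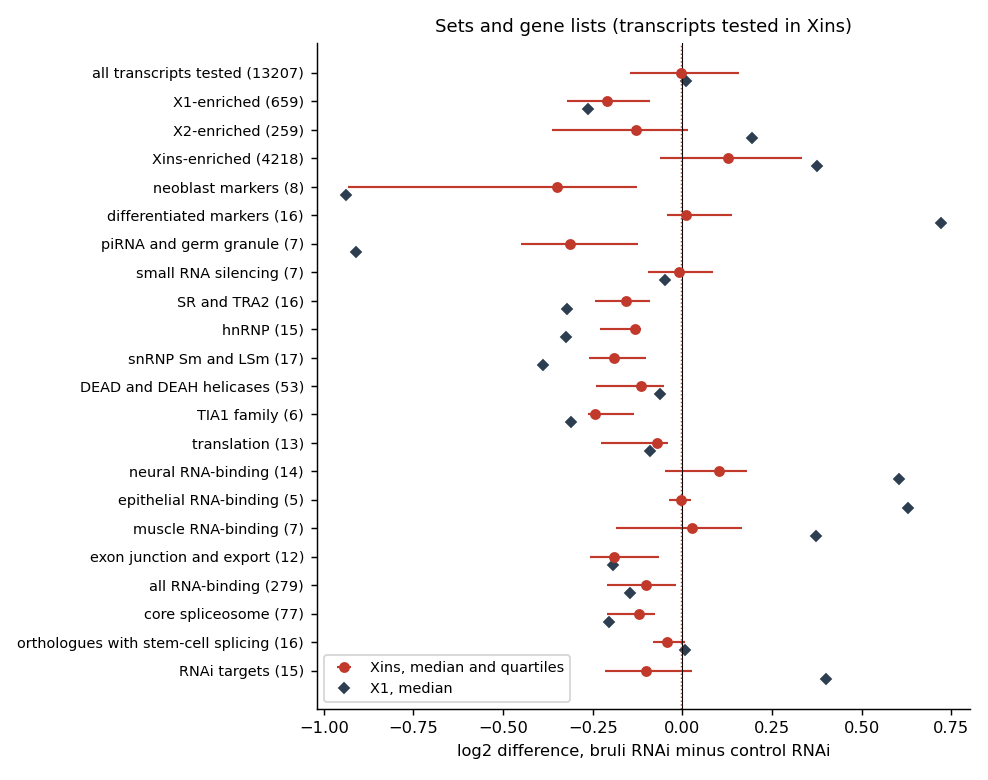
Median log2 difference of *bruli* RNAi minus control RNAi for each set and gene list, with the number of transcripts tested in Xins in brackets. Red points and bars are the median and quartiles in Xins, dark diamonds the median in X1. Lists of mature-tissue factors lie at up to 0.10 in Xins and between 0.37 and 0.72 in X1, where some of the differentiated markers were near the floor. The whole Xins-enriched set lies at 0.37 in X1.

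The small RNA silencing list held the Argonaute and processing factors of the microRNA and RNAi pathways, on which dsRNA injection depends. Its 7 transcripts had a median of -0.01 and a range of -0.14 to 0.20. The 3 *AGO2* transcripts gave -0.14 (SE 0.21), -0.09 (SE 0.19) and 0.20 (SE 0.20) for comp1194, comp3861 and comp7594. *DROSHA* and *DGCR8*, which cut primary microRNAs, gave -0.01 (SE 0.23) and -0.10 (SE 0.22), and *TARBP2*, a partner of Dicer, 0.02 (SE 0.23). Their 95% intervals all held 0 and reached no further than 0.70 in either direction.

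The other targets of the study's RNAi groups were near control levels in *bruli* RNAi Xins. Of the 18 target transcripts in the files 15 passed the filter, and apart from *bruli* their log2 differences ran from -0.28 to 0.42. *celf-2* (comp14010), the CELF family member measured beside *bruli*, had 28.3 and 46.5 CPM in *bruli* RNAi against 28.6 and 49.2 CPM in control RNAi (-0.05, SE 0.36). *rbfox-3* (comp7213), a neural splicing factor relative, had the highest value of the group, with 181 and 96.1 CPM against 110 and 85.8 CPM in control RNAi (0.42, SE 0.28). *ptbp-2* and *ptbp-3*, relatives of the polypyrimidine tract-binding proteins, were at -0.25 (SE 0.19) and -0.24 (SE 0.20), with no overlap between the groups for either. The groups lay apart in this direction for 8.2% of all transcripts tested and for 29.6% of the X1-enriched ones, to which *ptbp-2* belonged. Both *nova-4* transcripts and *mbnl-like-3* did not pass the filter. For *mbnl-like-3* the levels were 1.18 and 1.39 CPM in *bruli* RNAi against 1.19 and 1.52 CPM in control RNAi, and *nova-4* had at most 2 counts in any of these 4 libraries.

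The *mbnl* genes, whose products act against CELF proteins in vertebrates, had their lowest levels in *mbnl* RNAi Xins. *mbnl-1* (comp2838) had 104 and 85.9 CPM in *bruli* RNAi Xins, 37.5 and 57.7 CPM in *mbnl* RNAi Xins and 118 and 98.9 CPM in control RNAi Xins. Its log2 difference was -0.19 (SE 0.28) from control RNAi and 1.00 (SE 0.29) from *mbnl* RNAi. *mbnl-like-1* (comp7489) had 17.9 and 11.0 CPM in *bruli* RNAi, 3.71 and 3.66 CPM in *mbnl* RNAi and 20.6 and 14.1 CPM in control RNAi, with log2 differences of -0.28 (SE 0.26) and 1.90 (SE 0.28). That last value had the smallest p of the direct comparison of both knockdowns, in which 0 of 13207 transcripts were called by edgeR's quasi-likelihood test (481 at an unadjusted p under 0.05, 3.64%) and 32 by DESeq2. Without *mbnl* RNAi replicate 2, 208 were called.

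Among the 346 annotated transcripts tested, 340 lay within 0.5 of 0 and 85 (24.6%) were at or below -0.2, beside 18% of all transcripts tested. At or above 0.2 there were 15 (4.34%), beside 20.7% of all. Besides *bruli* and *PIWIL1* (comp659), *MEX3D* (comp1999) was the transcript with the smallest p that carries a gene symbol. It encodes a KH-domain RNA-binding protein and had 137 and 76.4 CPM in *bruli* RNAi Xins against 264 and 149 CPM in control RNAi Xins. The log2 difference was -0.95 (SE 0.27), with nearly equal ratios of -0.94 and -0.97 within numbers 1 and 2, and it did not pass edgeR's quasi-likelihood test (adjusted p of 1). *mbnl* RNAi Xins had 105 and 99.9 CPM, a difference of -0.02 (SE 0.27) between both knockdowns, and wild type Xins 147 and 199 CPM. In X1 the sign was opposite, with 900 and 555 CPM in *bruli* RNAi against 537 and 385 CPM in control RNAi (0.63, SE 0.26). The difference between fractions of -1.58 (SE 0.36), Xins minus X1, did not pass edgeR's quasi-likelihood test (adjusted p = 0.27).

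Another annotated transcript had an unadjusted p under 0.05. It has no symbol, is listed as RNA-binding and is named here after its values were seen: comp3282 had 108 and 64.2 CPM in *bruli* RNAi against 163 and 85.2 CPM in control RNAi. The groups overlapped, and the log2 difference was -0.50 (SE 0.19), with a 95% interval of -0.97 to -0.029 and an adjusted p of 1 in edgeR's quasi-likelihood test. The other named transcripts with a symbol had intervals that held 0. *QKI* (comp11601), a splicing regulator of the STAR family, had 67.2 and 54.6 CPM in *bruli* RNAi against 35.4 and 48.3 CPM in control RNAi (0.53, SE 0.26), and *PCBP3* (comp7334), a poly(C)-binding protein, 73.5 and 45.8 CPM against 42.8 and 44.1 CPM (0.43, SE 0.25). For both, the knockdown libraries lay above both controls, as for 7.63% of all transcripts tested, but within number 2 the log2 ratios were only 0.18 and 0.05. The negative ones included *DHX8* (-0.59, SE 0.28), a helicase that releases finished messenger RNA from the spliceosome, and *DDX39B* (-0.40, SE 0.23), a helicase of RNA export. *HNRNPL* (comp1327), *TIA1* (comp2139), *ACIN1* and *DDX31* lay between -0.46 and -0.28, as did 3 spliceosome components known by their KEGG numbers (K12847, K12852 and K12857). Close paralogues can share reads, so that the split between the 2 *PIWIL1* or *DDX4* transcripts is uncertain.

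Most of the largest differences were in transcripts without a symbol, as were most transcripts tested: only 346 of 13207 were annotated. Of those at least 2-fold lower 2 of 53 carried a symbol, and of those at least 2-fold higher 0 of 40. The smallest p belonged to comp2674, with 1.93 and 0.52 CPM in *bruli* RNAi Xins (36 and 19 counts) against 19.9 and 17.0 CPM in control RNAi Xins (451 and 605 counts), a log2 difference of -4.22 (SE 0.54), not called by edgeR's quasi-likelihood test. This transcript was X2-enriched and varied as widely between wild type libraries, with 18.5 and 0.65 CPM in wild type Xins, and it had 1.63 and 0.42 CPM in *mbnl* RNAi Xins. A second, comp2787, had 0.97 and 0.19 CPM against 14.8 and 2.37 CPM in control RNAi (-3.77, SE 0.60), and was an X1-enriched transcript with 313 and 223 CPM in *bruli* RNAi X1 against 618 and 549 CPM in control RNAi X1. On the higher side, comp4598 had 26.1 and 25.1 CPM against 14.7 and 11.9 CPM in control RNAi (0.95, SE 0.23). The next, comp1088, had 184 and 109 CPM against 122 and 51.4 CPM in control RNAi (0.84, SE 0.21), with overlapping groups. Wild type Xins had 27.8 and 124 CPM of comp4598, both above *bruli* RNAi, and 122 and 977 CPM of comp1088. The log2 differences from wild type were therefore negative, at -1.57 and -1.95. Of the 8 transcripts called by DESeq2, 2 carry a name, *bruli* and *PIWIL1* (comp659), and all 8 were lower in both numbers.

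With wild type as the reference, 0 of 13281 transcripts were called between *bruli* RNAi and wild type in Xins by edgeR's quasi-likelihood test (314 at an unadjusted p under 0.05, 2.36%) and 5 by DESeq2. Between control RNAi and wild type 0 were called as well (538 at an unadjusted p under 0.05, 4.05%) and 5 by DESeq2. Of those at an unadjusted p under 0.05, 250 of 314 and 423 of 538 were lower in the RNAi group. The order of these counts depended on the wild type libraries: without wild type replicate 1 there were 2669 for *bruli* RNAi and 2606 for control RNAi, and without replicate 2 there were 383 and 374. The comparisons share the wild type libraries, and without wild type replicate 1 there were 74 calls between control RNAi and wild type.

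In X1, where *bruli* is high, the same knockdown gave calls. Of 12549 transcripts 181 were called by edgeR's quasi-likelihood test (1.44%), 116 higher (0.924%) and 65 lower (0.518%) in *bruli* RNAi. Without the replicate block there were 0, and leaving out any 1 of the 4 X1 libraries left 0 to 2. No transcript was called for a difference of the knockdown effect between fractions (0 by edgeR's quasi-likelihood test, 1116 at an unadjusted p under 0.05, 8.89%), while DESeq2 called 118. The X1 and Xins comparisons share no library, but both fractions were sorted from worms of the same RNAi groups, and the sources used here do not say whether same-numbered libraries share worms or sort days. Reading the X1 calls in Xins is therefore a description. Of the 116 called higher in X1, 114 were tested in Xins, 81 of them with a positive log2 difference. Their median was 0.17 in Xins against 1.79 in X1, and 37.7% were higher in both numbers, beside 22.6% of all transcripts tested. Of the 65 called lower in X1, 63 were tested in Xins and 52 had a negative difference, with a median of -0.17 in Xins against -1.43 in X1 and 57.1% lower in both numbers, beside 28.7% of all. Of the 114 called higher and tested in Xins, 92 were Xins-enriched, and of the 63 called lower and tested there, 37 were X1-enriched. Over all 11782 transcripts tested in both fits, 3605 were Xins-enriched and 659 X1-enriched. Those whole sets had medians of 0.13 with 34.7% higher in both numbers, and of -0.21 with 70.1% lower in both, values that lie close to those of the transcripts called higher in X1 and further from 0 than those of the transcripts called lower. Whether the X1 calls differ in Xins from the rest of these sets was not tested.

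The named transcripts called in X1, given here because of that call, show the range. *bruli* was at -2.19 in Xins against -2.94 in X1. *PIWIL1* (comp1258) was at -0.51 (SE 0.25) against -1.36, and K12847 at -0.38 (SE 0.20) against -0.94. *SNRPD2*, a core Sm protein, was at -0.19 (SE 0.20) against -1.36, the DNA helicase *RECQL* at -0.11 (SE 0.19) against -1.30, and *ADARB2*, of the RNA-editing deaminase family, at -0.20 (SE 0.21) against -1.19. *HNRNPA2B1* (comp986) was at -0.29 (SE 0.21) against -1.13 and *TDRKH* at -0.11 (SE 0.18) against -0.96. The one called higher in X1, *MSI1* (comp7323), a Musashi protein, was at 0.17 (SE 0.22) in Xins against 1.16.

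**Figure D5:**
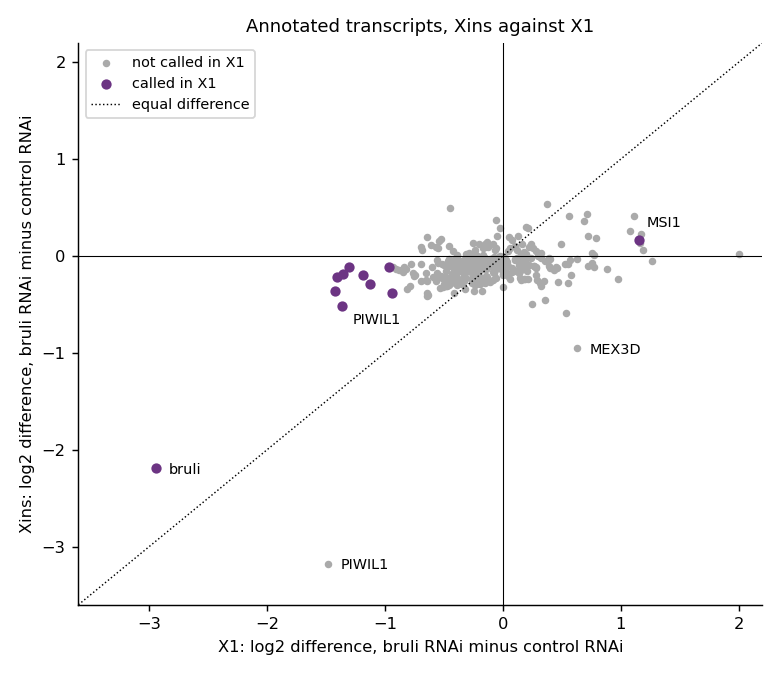
Log2 difference of *bruli* RNAi minus control RNAi in Xins (vertical axis) against that in X1 (horizontal axis) for the transcripts of the study's annotation tables tested in both. Purple points were called in X1, and the dotted line marks equal differences. All points called in X1 except *bruli* lie within about 0.5 of 0 in Xins. Points below the line include *MEX3D*, *PIWIL1* (comp659) and *MSI1* (comp7323), among others.

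X2 and whole worms have 1 library per group, so their values are descriptions. Past a log2(cRPKM + 1) difference of 0.7, 561 transcripts were lower (5.2%) and 437 higher (4.05%) in *bruli* RNAi X2, and 74 were lower (0.581%) and 732 higher (5.75%) in *bruli* RNAi whole worms. Read in Xins, the 483 tested among those lower in X2 had a median log2 difference of -0.17. Of these 50.1% were lower in both numbers, beside 28.7% of all transcripts tested. The 417 among those higher in X2 had a median of 0.20, with 40.3% higher in both numbers, beside 22.6% of all. For whole worms the medians in Xins were -0.29 over 55 lower transcripts and 0.08 over 676 higher ones.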

How the data were processed

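RNA of sorted cells and whole worms was sequenced from poly-A libraries (TruSeq RNA v2). The authors mapped reads with Bowtie (version not given in the sources used here) to a *de novo* planarian transcriptome. They deposited per library the raw read counts of each transcript and its cRPKM, an RPKM corrected for mappable positions. Blank counts were read as 0, and files of other RNAi groups were not used here. The main test was edgeR 4.0.16 (R 4.3.3) on counts, with TMM normalization and the quasi-likelihood test. It was fitted on the *bruli*, *mbnl* and control RNAi Xins libraries with the replicate number as a block, over transcripts with a mean log2(cRPKM + 1) above 1.5 in the *bruli* and control RNAi Xins libraries. Calls had a Benjamini-Hochberg adjusted p under 0.05. limma 3.58.1 and DESeq2 1.42.0 were alternatives. Same-numbered Xins RNAi libraries deviated together (correlations of 0.49, 0.55 and 0.73), so the number was taken to pair them. CPM are scaled over the 8 Xins libraries, or over 12 sorted RNAi libraries where X1 and Xins stand side by side. Named were the RNAi targets, annotated transcripts with the smallest p up to 20, all piRNA and small RNA silencing members, and 2 unannotated transcripts in each direction. Members, sets and lists were chosen with earlier results of these data known. The scripts were tested on simulated data.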

Additional observations from a re-analysis of the deposited data

How the results depend on the processing

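The Xins comparison kept 0 calls under every edgeR and limma alternative run, including the fit without the replicate block (0) and each library left out. DESeq2 in the same design called 8 in Xins, 5 between *bruli* RNAi and wild type, 5 between control RNAi and wild type, 32 between *bruli* RNAi and *mbnl* RNAi, 118 for the difference between fractions and 649 in X1. In X1, limma called 75, the fit with no replicate block 0, and leaving out 1 library gave 0 to 2, against 181. Leaving out 1 library gave 0 to 74 calls between control RNAi and wild type (74 without wild type replicate 1) and 0 to 208 between *bruli* RNAi and *mbnl* RNAi (208 without *mbnl* replicate 2). With a margin of 1 the median of the X1-enriched set was -0.15. The X2-enriched median ran from -0.20 to -0.13 over libraries left out and was -0.041 against wild type. The Xins-enriched median was 0.10 with limma, 0.12 with no replicate block, 0.11 with library totals, 0.067 to 0.17 over libraries left out, 0.037 against wild type and 0.094 with a margin of 1. The causes were not tested. Of 47 named transcripts, 14 changed sign with wild type as the reference and 4 to 7 when 1 library was left out. With 2 libraries per group, the median unadjusted 95% interval spans 1.58-fold to either side, and larger differences also failed adjustment.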

Other observations

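A group of 917 Xins-enriched transcripts, chosen after their values were seen for a log2 ratio of at least 0.5 in number 2, had a median ratio of *bruli* RNAi over control RNAi of 0.81 in number 2 and -0.02 in number 1. It held 71 of the 92 transcripts that were higher at an unadjusted p under 0.05. The same group differed between libraries of 1 group: the median log2 ratio of replicate 2 over replicate 1 was 0.97 in *bruli* RNAi, 0.02 in control RNAi and 1.03 in wild type, and that of *mbnl* RNAi over control RNAi was 0.71 in number 2 and -0.87 in number 1. The number 2 value chose the group and is a description. The part of sample composition in these values was not tested.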
